A study of Rattus norvegicus with 9 samples.

Results

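Cytosolic ribosomal protein genes were compared between kidneys of rats labelled case and control in a study of gene expression in hypotension. The members were chosen by name, as genes whose only symbol in the platform annotation starts with Rpl or Rps and a number, or is Rplp0, Rplp1, Rplp2 or Rpsa, without kinases, binding proteins and pseudogenes. This gave 44 genes on 50 probe sets, of 10411 genes with a single symbol on the array, namely 30 of the large and 14 of the small subunit. The data were 9 Affymetrix RAE230A arrays of total kidney RNA, 1 for each of 4 case and 5 control animals. The labels give neither strain, age, treatment nor the way in which blood pressure was lowered, and the submitters' words case and control are kept here. Each gene was represented by its probe set with the highest mean log2 signal over all arrays, a choice blind to the groups.

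A cytosolic ribosome is built from ribosomal RNA and one copy of nearly every ribosomal protein. The small subunit reads the mRNA, and the large subunit forms the peptide bond and holds the tunnel through which the new protein leaves. The messenger RNAs of these proteins begin with a cap-adjacent stretch of pyrimidines, the terminal oligopyrimidine tract, through which the mTOR kinase complex and LARP1 set their translation together. That control acts mainly on translation, which an array of RNA levels does not measure.

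The shared start feature is shown here because the naming rule did not use it. RefSeq promoter sequences of the GRCr8 build, from 250 bases before to 50 after the annotated start, were found for 37 of the 44 genes by Entrez ID. In 23 of the 37, or 62.2%, an unbroken run of at least 8 C or T bases touched the annotated start or the 10 bases on either side, against 13.5% of all 27457 promoters of that length. The median longest run was 9 bases in the members and 4 in all promoters. A C at the annotated start followed by at least 4 more C or T bases stood in 27.0% of members and 2.63% of all promoters. The windows of 30 bases below, 15 before and 15 from the start on, belong to genes described in the results, with the run in capitals as far as it lies in the window. The run of Rps23 goes on beyond the window, to 21 bases. Rpl3, Rpl24 and Rps27l, a paralog of Rps27 and a known p53 target, are shown as members whose longest run is under 8 bases, at 5, 6 and 3.

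Rpl35 (chr3:43165907-43165936, minus strand): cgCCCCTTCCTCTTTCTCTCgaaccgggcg
Rplp0 (chr12:46718376-46718405, minus strand): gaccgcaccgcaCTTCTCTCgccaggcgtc
Rpl3 (chr7:113507976-113508005, minus strand): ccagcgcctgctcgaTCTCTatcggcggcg
Rpl24 (chr11:58128391-58128420, minus strand): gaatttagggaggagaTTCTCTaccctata
Rps28 (chr7:15311319-15311348, minus strand): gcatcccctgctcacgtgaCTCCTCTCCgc
Rps15 (chr7:10068101-10068130, minus strand): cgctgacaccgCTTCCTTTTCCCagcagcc
Rps23 (chr2:23814502-23814531, plus strand): tgggtccttcctgCCTCTCTTCTCTCTTTC
Rps27l (chr8:76443643-76443672, plus strand): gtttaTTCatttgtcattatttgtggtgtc

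On either strand of the 300 bases, the YY1 core ATGGCGG was found in 11 of 37 members, or 29.7%, and in 5.22% of all promoters. The ETS family core CCGGAAG was found in 9, or 24.3%, and in 9.22%. The reverse strand of the ETS core reads CTTCCGG and can share bases with a C or T run, while both cores cannot share bases with each other. These are matches of letters, not shown binding sites. The 22 tested members with a run of at least 8 bases had a median log2 difference between case and control of 0.07, and the 14 without one 0.02.

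All 9 arrays came from 1 chip lot and were washed on 1 station on 1 day. Kidney identity was seen in all of them: Umod, the urinary protein of the thick limb, lay between 3707 and 5699, and Slc34a1, the phosphate carrier of the proximal tubule, between 2578 and 4495. The summed signal of 8 proximal tubule markers was 11828 to 17669 in case and 12891 to 17524 in control. For the 8 leukocyte markers on the array it was 1608 to 2523 in case and 1700 to 3025 in control, so the groups overlapped. Of these, 3 passed the brightness filter, Cd74 (695.6 to 1611), Lyz2 (748.3 to 1238.5) and Cd68 (38.8 to 88.7). Smooth muscle and mesangial markers summed to 270.6 to 341.1 in case and 324.3 to 364.2 in control. Of 5 tested, 0 had a higher case mean and 2 had an unadjusted p under 0.05 in limma. Such a p was also reached by 2 of 4 endothelial markers, both lower in case, Egfl7 at -0.45 ± 0.18 and Esam at -0.48 ± 0.19 (SE). Over all tested probe sets 6.69% had such a p and 46.0% had a higher case mean. Distal and loop markers had a higher case mean in 2 of 5 genes, collecting duct markers in 1 of 4, proximal tubule markers in 3 of 8, podocyte and endothelial markers in 2 of 4 each, red cell markers in 0 of 2, and skeletal muscle markers in 1 of 2. The skeletal muscle marker with the higher case mean was Myh1, at 1841 to 2703. Other markers of that list, Acta1, Myh4 and Tnnt3, did not exceed 17.5, 7.2 and 22.4. Whether the Myh1 probe set measures muscle RNA was not tested. No marker of adrenal cortex, adipose tissue or liver passed the filter. In whole kidney RNA, fewer cells of a type and less RNA per cell cannot be told apart, and the part of these markers in the results was not tested.

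No ribosomal protein gene tested was called different between case and control kidneys. Values were compared with limma as log2(signal + 5.03), so that differences of dim genes are understated, over the 9519 probe sets above a filter on mean brightness. Of the 44 genes, 42 passed that filter, 28 of the large and 14 of the small subunit. None of the 42 had a limma adjusted p under 0.05, where 0.0% of all tested probe sets did, and the smallest adjusted p among them was 0.786. Again 0 of 42 had an unadjusted p under 0.05, against 6.69% of all tested probe sets. Values of the 4 case and 5 control animals overlapped for all 42 genes, while they did not overlap for 1.88% of all tested probe sets.

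The differences were small in both subunits. With 1 probe set for each gene, they ran from -0.16 to 0.25 on the log2 scale, with standard errors between 0.09 and 0.27. The 95% interval included 0 for all 42 genes. For 33 genes that interval lay wholly within 0.5 on either side of 0. Only 1 of the 42, Rps27l, differed by more than 0.25 in size, against 21.3% of all tested probe sets. That share is not matched for brightness. The median standard error was 0.12 for the members and 0.17 over all tested probe sets. The residual spread between animals of one group lay below the spread that limma fitted for probe sets of the same brightness in 30 of the 42, against 48.2% of all tested. The median residual SD was 0.15 in the large and 0.21 in the small subunit, and the fitted value at their brightness was 0.20 for both. The narrowest spread was that of Rpl26, a protein near the tunnel exit known to bind p53 mRNA, at a residual SD of 0.0613. Its signals were 1997, 1780, 1978 and 1984 in case animals 3, 5, 7 and 8 and 1838, 1944, 1804, 1880 and 1920 in control animals 4, 9, 10, 11 and 12. The control values lay within the range of the case values, and the difference was 0.04 ± 0.09 (SE). The widest was that of Rps27l, at 0.485.

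**Figure D1:**
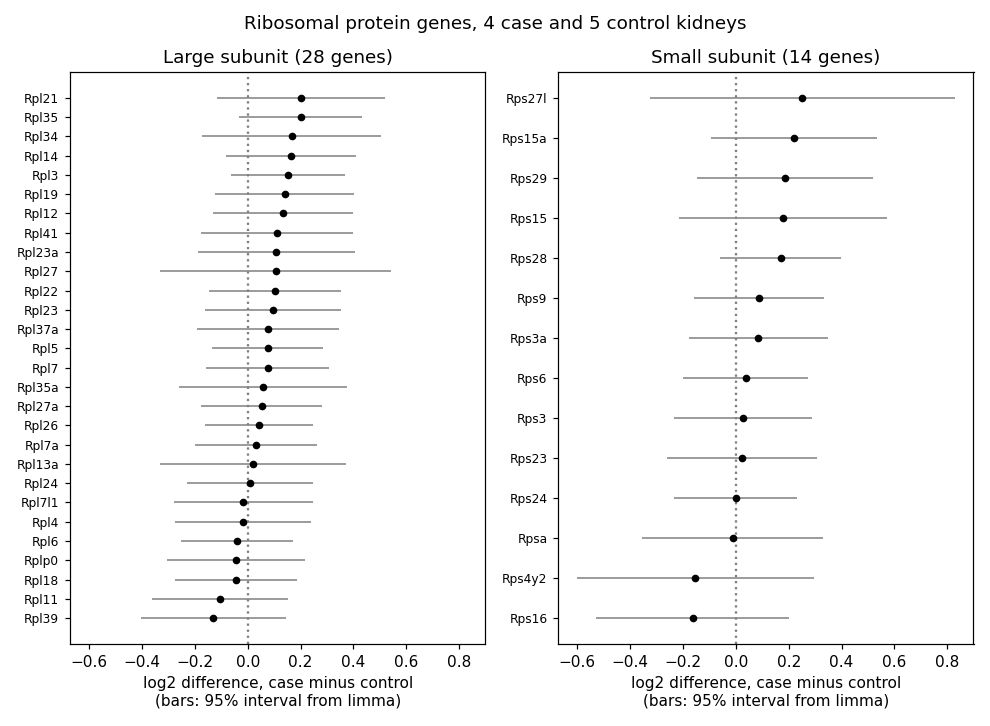
The horizontal axis is the log2 difference, case minus control, with 95% intervals from limma, for 28 large and 14 small subunit genes. All 42 intervals cross 0, and that of Rps27l is the widest.

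The large subunit gene with the smallest p was Rpl35, whose protein sits near the mouth of the exit tunnel. Its signal was 1158, 1248, 1286 and 1503 in case animals 3, 5, 7 and 8, and 1031, 1207, 1104, 1148 and 1142 in control animals 4, 9, 10, 11 and 12. Case animal 8 was highest, and case animal 3 lay below control animal 9. The log2 difference was 0.20 ± 0.11 (SE), with limma adjusted p = 0.786.

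Rpl3, whose protein reaches toward the peptidyl transferase centre, had signals of 1618, 1678, 1706 and 1668 in the case animals in the same order. In control they were 1366, 1590, 1409, 1521 and 1633. The case values lay within a narrow band, and only control animal 12 reached into it. The log2 difference was 0.15 ± 0.10 (SE), with limma adjusted p = 0.833.

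Other large subunit genes with higher case means had similar sizes. Rpl21 differed by 0.20 ± 0.15, Rpl14 by 0.16 ± 0.11 and Rpl19, which helps to bridge the subunits, by 0.14 ± 0.12 (SE, limma adjusted p = 0.845 to 0.892). Within the P stalk, where translation factors dock, Rplp0 showed 1168, 1264, 931 and 1106 in case. Its control signals were 1024, 1238, 1263, 1175 and 1045. Both groups covered nearly the same range, and the difference was -0.04 ± 0.12.

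The pair that binds 5S ribosomal RNA and can hold back MDM2 differed in sign. Rpl5 averaged 1837 ± 96.0 (SD, n = 4) across case and 1742 ± 85.0 (SD, n = 5) across control animals, which differed on the log2 scale by 0.08 ± 0.10 (SE). Rpl11 was 1344 ± 165 (SD, n = 4) and 1442 ± 144 (SD, n = 5), a difference of -0.10 ± 0.12 (SE). For both genes the difference was smaller than its standard error, and the groups overlapped.

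The lowest difference in the large subunit was that of Rpl39, a very short protein that lines the exit tunnel. Its signals were 116, 103, 92.4 and 121 in case and 130, 112, 119, 107 and 124 in control. They overlapped, and the difference was -0.13 ± 0.13 (SE), with limma adjusted p = 0.907. Rpl13a, which is often taken as a reference gene, differed by 0.02 ± 0.16, and its control signals ranged from 530.4 to 960.0. Rpl4, Rpl6 and Rpl18 differed by -0.02 ± 0.12, -0.04 ± 0.10 and -0.04 ± 0.11.

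In the small subunit, Rps28 had the smallest p. Its signals were 1113, 1192, 1008 and 1186 in case and 982, 1038, 1091, 888 and 1000 in control. Case animals 3, 5 and 8 lay above every control, and case animal 7 lay among them. The log2 difference was 0.17 ± 0.11 (SE), with limma adjusted p = 0.820.

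Rps15a averaged 953 ± 115 (SD, n = 4) across case and 824 ± 146 (SD, n = 5) across control animals, which differed on the log2 scale by 0.22 ± 0.15 (SE). Rps29, a small zinc-binding protein, differed by 0.19 ± 0.15. The opposite sign was seen for Rps16, whose tail reaches the decoding site, with a difference of -0.16 ± 0.17. Its signals were 1210, 1508, 925 and 1223 in case and 1347, 1080, 1752, 1129 and 1524 in control, with the extremes of the range in case animal 7 and control animal 10.

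Rps6, the substrate of the S6 kinases, averaged 2087 ± 143 (SD, n = 4) across case and 2038 ± 195 (SD, n = 5) across control animals, which differed on the log2 scale by 0.04 ± 0.11 (SE). Rps3, which lines the mRNA entry site, differed by 0.03 ± 0.12. Rpsa, also known as the laminin receptor precursor, had 3 tested probe sets with differences of -0.01 ± 0.16, 0.13 ± 0.11 and 0.17 ± 0.13. The first of these represents the gene, and the others carry suffixes that mark probes shared between transcripts. A second, dimmer tested probe set of Rpl7 differed by 0.37 ± 0.32, and the one that represents the gene by 0.08 ± 0.11. No gene had tested probe sets that differed in opposite directions by at least 0.3 each.

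Paralogs were not called either. Rps27l had signals of 148, 80.0, 43.5 and 89.5 in case and 61.3, 73.9, 85.6, 52.7 and 75.1 in control, so that the case animals held both the highest and the lowest value. Its log2 difference was 0.25 ± 0.27 (SE), was -0.02 without case animal 3 and was 0.54 without case animal 7 (limma adjusted p = 0.909). Rpl7l1 differed by -0.02 ± 0.12 and Rps4y2 by -0.15 ± 0.21. Rpl3l, a form of Rpl3 known from heart and skeletal muscle, did not exceed 8.70 on any array and was not tested, like Rpl30, whose single-symbol probe set did not exceed 24.8.

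Subunit means showed the same size of difference on both sides of the ribosome. The mean log2 value of the 28 large subunit genes was 10.02, 10.06, 10.01 and 10.18 in case animals 3, 5, 7 and 8, and 9.92, 10.06, 10.06, 9.96 and 10.03 in control animals 4, 9, 10, 11 and 12. For the 14 small subunit genes it was 9.80, 9.80, 9.55 and 9.91 in case and 9.65, 9.67, 9.81, 9.60 and 9.77 in control. Case animal 8 was highest in both, control animal 4 was lowest in the large subunit and case animal 7 was lowest in the small one.

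The group means differed by 0.06 in the large subunit, with 10.07 ± 0.08 (SD, n = 4) across case and 10.01 ± 0.06 (SD, n = 5) across control animals. In the small subunit they differed by 0.07, 9.77 ± 0.15 (SD, n = 4) and 9.70 ± 0.09 (SD, n = 5). The SD between animals within groups was 0.07 for the large and 0.12 for the small subunit mean, and neither difference exceeded it. This SD is the spread of single animals. The standard error of a difference of group means is smaller and was not computed, and the subunit differences were not tested. Large minus small within each animal averaged 0.30 ± 0.11 (SD, n = 4) across case and 0.31 ± 0.07 (SD, n = 5) across control animals. The large minus small value was highest in case animal 7, at 0.46, and lay at 0.39 and 0.37 in control animals 9 and 11, with the 6 other animals between 0.22 and 0.27. Without case animal 8 the differences of the large and small subunit were 0.02 and 0.02, and without case animal 7 they were 0.08 and 0.14.

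**Figure D2:**
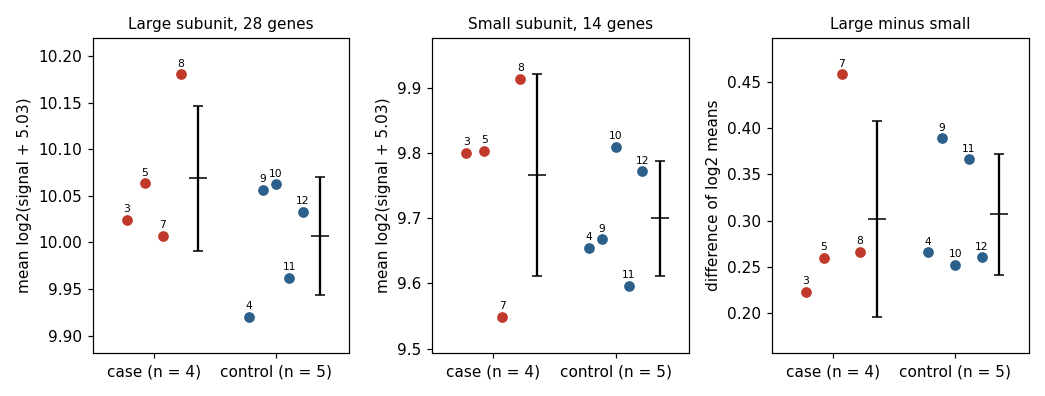
The vertical axes are mean log2(signal + 5.03) of the 28 large and 14 small subunit genes and, at the right, their difference, by animal (numbers), with group mean and SD in black; the axes do not start at 0. Case and control animals overlap in each panel, and case animal 8 is highest for both subunits.

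More members had a case mean above the control mean than below it. This was so for 31 of 42, 21 of 28 large and 10 of 14 small subunit genes, against 46.0% of all tested probe sets. That 46.0% is not matched to the brightness of the members. Over all probe sets it was 41.7% with no filter and 52% with a stricter filter at the 60th percentile. Under the stricter filter 31 of 41 members had the higher mean in case. The median difference was 0.08 in the large and 0.06 in the small subunit, and -0.02 over all tested probe sets. The share depended on how the arrays were brought to one scale. After quantile normalization 23 of 42 members had the higher mean in case, against 50.6% of all tested, and the subunit means differed by 0.01 and 0.03. After centring each array on its median it was 38 of 42, against 64.7% of all tested, with subunit differences of 0.15 and 0.16. The members' share lay 25.8 percentage points above that of all tested after this centring, 27.8 as reported and 4.21 after quantile normalization.

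Median centring also brought 3 members to an unadjusted p under 0.05, Rps28, Rpl35 and Rpl14, against 5.67% of all tested probe sets in the same direction. Case and control values then did not overlap for Rps28, Rpl14 and Rpl5, all higher in case, against 2.25% of all tested probe sets in the same direction. The smallest limma adjusted p among members was 0.616 under this scaling. The array medians ranged from 45.2 to 55.6, with the lowest in case animals 7 and 8 and the highest in control animal 4. Among the members, 21 of 44 lay in the brightest 2% of probe sets on all 9 arrays.

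**Figure D3:**
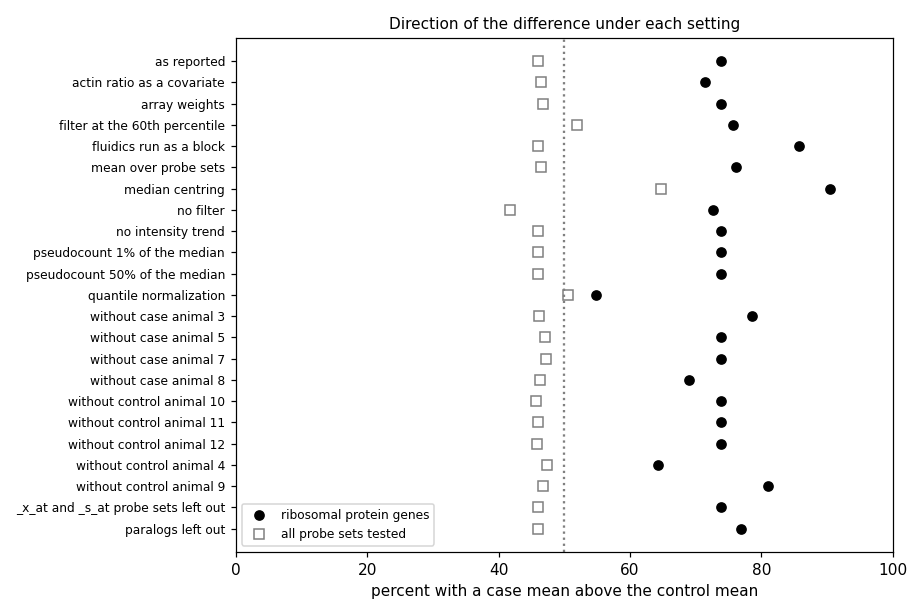
The horizontal axis is the percent of ribosomal protein genes (filled) and of all probe sets tested (open) with a case mean above the control mean, for each processing setting. The filled and open points lie 27.8 percentage points apart as reported and 4.21 points apart after quantile normalization.

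The arrays were grouped into 3 fluidics runs, split where hybridization times in the array files lay at least 10 minutes apart. The runs are thus inferred from these times. Run 1 held case animals 3, 5 and 7 and control animal 4, run 2 held case animal 8 and control animals 9, 10 and 11, and run 3 held control animal 12. With the run as a block 36 of 42 members had a higher case mean, against 46% of all tested probe sets. The subunit differences were then 0.13 in the large and 0.14 in the small subunit. Within run 1 they were 0.11 and 0.06, where 1 control animal stands for its group, and within run 2 they were 0.15 and 0.22, where 1 case animal does. With the block, Rpl35 and Rpl23a had an unadjusted p under 0.05, against 3.08% of all tested probe sets in the same direction, and limma adjusted p = 0.620 and 0.636. The difference of Rps29 was 0.03 with the block, -0.11 within run 1 and 0.18 within run 2. When the 3'/5' signal ratio of the actin control probes replaced the run in the fit, Rps29 was at 0.34 ± 0.15 and was the 1 member with an unadjusted p under 0.05, against 2.3% of all tested probe sets in the same direction.

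Members varied together across animals, and in more than one pattern. After group means were removed, the median correlation between 2 members over the 9 arrays was 0.212, with 0.162 within the large subunit, 0.298 within the small and 0.242 between them. Over all pairs of the 7147 genes above the filter it was 0.00214. Correlations over 0.5 made up 27.8% of member pairs and 15.3% of all pairs. These values share 9 arrays and their scaling and are given as a description.

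The first pattern, found after the values were seen, was led by Rpl27, Rps15, Rps9 and Rpl19. Rpl27 had signals of 2115, 2012, 1176 and 1853 in case animals 3, 5, 7 and 8, and 1489, 1352, 1916, 1278 and 2271 in control animals 4, 9, 10, 11 and 12. Rps15, whose tail reaches the decoding site, had 1171, 1048, 778 and 1500 in case and 1086, 792, 1144, 804 and 1064 in control. Both were lowest in case animal 7 and control animals 9 and 11.

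The opposite order was seen for Rpl24, a bridge protein, Rps23, which holds part of the decoding centre, and Rpl22. Rpl24 had signals of 479, 508, 559 and 493 in case and 467, 577, 488, 540 and 464 in control. Rps23 had 1295, 1632, 1814 and 1594 in case and 1308, 1822, 1435, 1564 and 1651 in control. Control animal 9 and case animal 7 were the highest of all for both genes. The axis that separates these sets held 42.8% of the variance among members that remained within groups, and the next one 21.6%.

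The brightest signals and the proximal tubule markers were lowest in the same 3 animals. The 99.9th percentile of signal was 3342 in case animal 7, 3365 in control animal 11 and 3656 in control animal 9, and between 3807 and 4505 in the 6 others. The summed proximal tubule markers were 11828, 12891 and 13241 in those 3 animals and between 15213 and 17669 in the others. The sum holds some of the brightest probe sets, Kap at 4645 to 8276 and Slc34a1 at 2578 to 4495. It is therefore not a measure separate from the 99.9th percentile. That actin ratio was 3.05 in case animal 7, 1.73 in control animal 11 and 1.998 in control animal 9. It was 3.11 in case animal 8 and 1.94 in control animal 12, and between 1.12 and 1.65 in the 4 others. The same ratio of the GAPDH control probes was 2.39 in case animal 7, 1.57 in control animal 11 and 1.63 in control animal 9. In the 6 other animals the GAPDH ratio lay between 1.55 and 2.09. The part of these measures in the pattern was not tested.

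**Figure D4:**
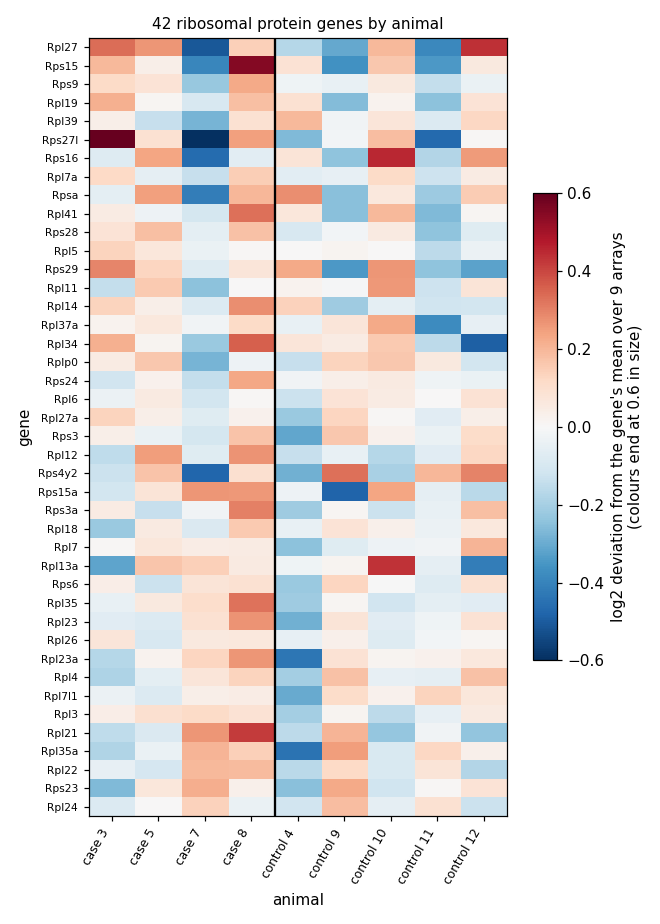
Colour shows the log2 deviation of each gene from its own mean over the 9 arrays, with animals as columns (case left of the line) and 42 genes as rows, ordered by their correlation with the main axis of variation. Case animal 7 and control animals 9 and 11 are the lowest for Rpl27, Rps15 and Rpl19, and case animal 7 and control animal 9 are the highest for Rpl24 and Rps23.

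Whole arrays leaned one way for these genes. In case animal 8, 39 of 42 members lay above their own mean over the 9 arrays, against 49.0% of all tested probe sets. In control animals 11 and 4 it was 9 and 11 of 42, against 49.6% and 54.7% of all tested. In the 6 other animals it was between 16 and 29 of 42.

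Genes that act with the ribosome gave no call either. Rack1, a scaffold on the small subunit, differed by 0.17 ± 0.14 (SE). Of 14 tested translation factors and related genes whose mRNAs also begin with a pyrimidine tract, 11 had a higher case mean and 0 had an unadjusted p under 0.05, with a median of 0.10. Among them Eef1d, an elongation factor subunit, differed by 0.25 ± 0.12, Eif4b by 0.25 ± 0.15 and Eif3h by 0.18 ± 0.12. Of 21 other translation factors 14 had a higher case mean, with a median of 0.07, and 0 had an unadjusted p under 0.05. Eif2b2 differed by 0.23 ± 0.12 and Eif4g1, the initiation scaffold, by -0.26 ± 0.15.

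Ribosome assembly genes differed in both directions. Of 27 tested, 12 had a higher and 15 a lower case mean, the median was -0.02, and 0 had an unadjusted p under 0.05. Dkc1, the pseudouridine synthase of ribosomal RNA, differed by -0.36 ± 0.18 and the nucleolar protein Ncl by 0.26 ± 0.16. Of 69 mitochondrial ribosomal protein genes, 46 had a higher case mean, with a median of 0.04. An unadjusted p under 0.05 was reached by 2, or 2.90%, Mrps18b at 0.36 ± 0.13 and Mrps11 at -0.64 ± 0.24, with limma adjusted p = 0.644 for each.

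Genes of the mTOR arm that controls ribosomal protein mRNAs were split evenly, with 7 of 14 higher in case and a median of 0.00. The list mixes genes that promote this arm with genes that restrain it, so the split gives no direction for the arm. Eif4ebp2, a repressor of cap-dependent initiation, differed by -0.62 ± 0.26 (unadjusted p = 0.0301 and adjusted p = 0.677 in limma), and signals of this gene ranged from 133.3 to 489.0. It was the 1 gene of the 14 with an unadjusted p under 0.05. Larp1 differed by 0.14 ± 0.14. The share of each list past an unadjusted p under 0.05 can be read against 6.69% of all tested probe sets.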

How the data were processed

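The deposited values are linear intensities, 1 for each probe set of an array. Leaving out the top and bottom 2%, their mean lay between 100.02 and 100.03 for all 9 arrays, so the deposited intensities had been scaled. The summarising software is not given in the sources used here. Chip type and hybridization times come per the file headers. Gene symbols came from the platform annotation. Of the 44 genes, 42 matched RefSeq (GRCr8) by Entrez ID.

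Of 15923 probe sets, 57 controls were left out. The pseudocount of 5.03 is 10% of the median signal of 50.3. Probe sets with a mean log2 value above the 40th percentile, near a signal of 33.3, were tested with limma 3.58.1 in R 4.3.3 (lmFit, eBayes with intensity trend, 2-sided, Benjamini-Hochberg over all probe sets, threshold 0.05). The steps were tested on simulated data. Tables were made with pandas 2.3.3 and NumPy 2.4.6 under Python 3.11.15, and plots with matplotlib 3.10.9. The number of animals limits the precision.

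Members and lists were chosen with earlier results of these data known. Named were the 8 members with the smallest p in each direction, a fixed set of well-known members and paralogs, members with discordant probe sets, and up to 3 genes per other list. Rpl27, Rps15, Rps9, Rpl22, Rpl23a, Rpl24, Rpl26 and Rps23 were named after their values were seen, as were Rpl7 and Rpl30.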

Additional observations from a re-analysis of the deposited data

Results flagged for a closer look

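Of 54 sets of animals examined for a lone extreme value (23 single-gene members tested, Rpl3l, and 3 subunit measures, in each group), 2 held one, where chance gives about 1 in 20. Rpl5 was 1596 in control animal 11, and its distance to the next control was 0.712 of the range in control on the log2(signal + 5.03) scale, against a critical value of 0.71, and 0.699, below that value, on the signal itself. Rpl7l1 was 149.1 in control animal 4, with a distance of 0.751 of the range on the log2 scale and 0.723 on the signal. Neither was examined further.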

How the results depend on the processing

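No ribosomal protein gene had an adjusted p under 0.05 in limma under any of the 13 other settings or without any 1 of the 9 animals. Leaving out paralogs, or probe sets whose suffix marks shared probes, reused the reported fit for the members kept. Neither setting could change a member's p. The large minus small difference moved by less than 1 SD between animals under all 13 settings and without any 1 animal. With 1 animal left out it lay between -0.06 and 0.02. Median centring shifts all values of an array alike, so it could not move this difference. Fitting without the intensity trend leaves the group means as they were and could not move it either, nor could leaving out probe sets with those suffixes. Over all probe sets, median centring gave 1 call (a probe set without a symbol), and no filter and the pseudocount of 50% of the median gave 1 each (Pheta1); with 1 animal left out the count lay between 0 and 53, with 53 without case animal 5. Members with an unadjusted p under 0.05 numbered 3 of 42 with median centring, against 7.63% of all tested probe sets in either direction. They numbered 2 with the fluidics run as a block, against 7.67%, and 1 with the actin ratio as a covariate (Rps29), against 4.69%. With 1 animal left out they numbered 0 to 1, against 4.44% to 11.2%. Members without overlap numbered 3 with median centring, against 2.71% of all tested probe sets in either direction. With 1 animal left out they numbered 0 to 2 of 42, where 2.72% to 7.88% of all tested probe sets did not overlap. The large subunit difference was 0.15 with median centring and 0.13 with the run as a block. The cause of these shifts was not tested. On the log2 scale, these members, none of them called, changed sign. The actin ratio put Rps16 at 0.00678, Rplp0 at 0.0484, Rpsa at 0.0651 and Rps6 at -0.0131. The run as a block put Rps4y2 at 0.0635, Rpl6 at 0.0296, Rpl18 at 0.0449, Rpl4 at 0.13, Rpl13a at -0.0279 and Rpl7l1 at 0.11. Median centring put Rpl6 at 0.0478, Rpl18 at 0.0445, Rplp0 at 0.0450, Rpl4 at 0.0711, Rpsa at 0.0757 and Rpl7l1 at 0.0724. Quantile normalization put Rpl13a at -0.0235 and Rps3 at -0.0303, array weights put Rpsa at 0.0551, and the mean over probe sets put Rpsa at 0.0975. With 1 animal left out, the ranges were Rpl18 between -0.10 and 0.0220, Rpl4 between -0.0703 and 0.0413, Rpsa between -0.0976 and 0.12, Rps27l between -0.0152 and 0.54, Rpl13a between -0.0819 and 0.13, Rpl7l1 between -0.0929 and 0.0156, Rplp0 between -0.11 and 0.0407, Rps3 between -0.0484 and 0.0705 and Rps6 between -0.0145 and 0.0872. No paired analysis was possible because the animals of both groups share no number.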

Other observations

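A further 28 tested probe sets carry several ribosomal protein symbols, mostly a gene with its pseudogenes, and are not named. Of these, 23 had a higher case mean, with a median log2 difference of 0.08 and a range from -0.24 to 0.29. None had an adjusted or unadjusted p under 0.05 in limma, and 0 had groups that did not overlap.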
